A study of Homo sapiens with 16 samples.

Results

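The SR and hnRNP genes encode RNA-binding proteins that steer splice site choice. The members were 40 listed genes, 14 of the SR family (SRSF1 to SRSF12 with the related TRA2A and TRA2B) and 26 of the hnRNP family (including the PTBP and PCBP genes and SYNCRIP). A peak or merged region belonged to a gene when its summit lay inside the gene's span in GENCODE on GRCh38 (the strongest summit of a region, or its midpoint where no peak overlapped it). The gene list used no measured value, but it was chosen with earlier results of these data known. The place of a summit is a measured position. Of 191974 peaks in the 8 peak lists, 287 lay in 32 of these genes, and of 36970 merged regions 63 lay in them. The data came from MeRIP-seq, in which RNA fragments with N6-methyladenosine (m6A) are pulled down by an antibody and the resulting IP library is read against unenriched input. C4-2B, a human prostate cancer line sensitive to the drug enzalutamide, was set against MDV-R, a resistant line derived from it by serial passage in the drug. Per the paper, MDV-R was kept in medium with enzalutamide, and no drug is named for the C4-2B medium. The line and the drug in its medium therefore cannot be told apart. Both lines were labelled wild type and sampled at day 3, in 4 IP and 4 input libraries each, and each IP library had its own peak list.

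SR proteins bind exonic enhancers through RNA recognition motifs and recruit the splicing machinery through arginine and serine rich tails, which SR protein kinases phosphorylate. Many hnRNP proteins bind nascent RNA and oppose splice site use. Many members of both families control their own output by including exons or keeping introns that expose the transcript to decay. HNRNPC and HNRNPA2B1 are also known for binding RNA in a way that depends on m6A. The mark is written mostly at GGAC-like sites, often in long exons and near stop codons.

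A bladder cancer line is named as well in the sample titles of MDV-R, so line markers were looked at first. Of the prostate luminal genes, KLK2, FOLH1, STEAP2, HOXB13 and FOXA1 held peaks in all 8 lists, and KLK3 and TMPRSS2 in 3 C4-2B and 4 MDV-R lists. KRT8 and KRT18 held none in either line. Of 6 genes chosen to mark the bladder line, VIM held a peak in all 8 lists, CD44 in 1 C4-2B list and the other 4 in none, and KRT5, KRT14 and TP63 held none. The MDV-R input libraries were deeper relative to their IP libraries, at 1.56 to 3.15 input tags per IP tag against 0.747 to 1.22 in C4-2B. Replicate 1 of C4-2B had the shortest list, 13191 peaks against 23254 to 30645 in the other 7. Nothing in the labels says that replicates were separate cultures, so p-values below measure the spread between these samples.

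More peaks were called in the SR and hnRNP genes in MDV-R, but the lists of the lines met at 1 value. C4-2B lists held 15, 32, 28 and 27 member peaks in replicates 1 to 4, and MDV-R lists held 48, 43, 32 and 62. MDV-R replicate 3 equalled C4-2B replicate 2, and the other MDV-R lists lay above every C4-2B list. The means were 25.5 ± 7.33 and 46.3 ± 12.4 (SD, n = 4 each, exact permutation p = 0.0571, two-sided, where 0.0286 is the smallest p this design can give). As a share of each list, member peaks made up 0.114%, 0.129%, 0.120% and 0.116% in C4-2B and 0.201%, 0.158%, 0.124% and 0.202% in MDV-R, again with p = 0.0571 in the exact permutation test. MDV-R replicate 3 had both the lowest member share and the lowest input depth of its line, 1.56 input tags per IP tag against 2.71 to 3.15 in the others, and the part of input depth in the result cannot be told apart from the line. Without that library both differences reached p = 0.0286 (exact permutation test), and the mean difference was 25.5 peaks in place of 20.8. The remaining MDV-R lists all lay above C4-2B, so this omission could only give the smallest p. Leaving out any other library gave p = 0.0571 to 0.0857 for both (exact permutation tests).

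**Figure D1:**
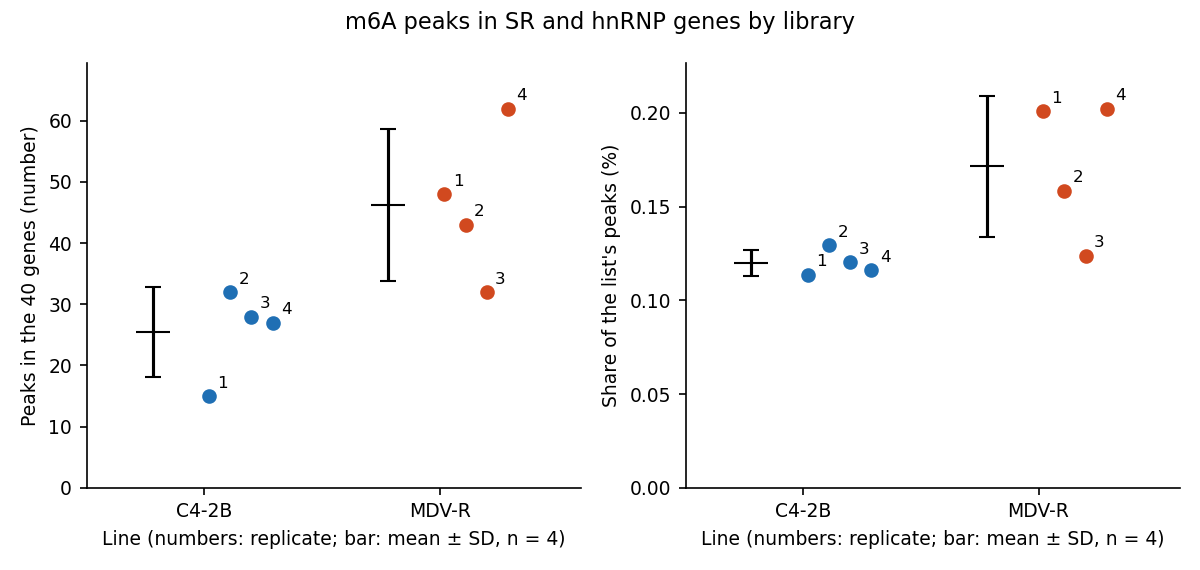
Peaks with a summit in the 40 SR and hnRNP genes in each of the 8 lists (left, number) and as a share of all peaks of the list (right, %). Points are IP libraries numbered by replicate, and bars give the mean ± SD of 4. MDV-R replicate 3, at 32 peaks and 0.124%, lies within or next to the C4-2B values and the other MDV-R libraries lie above them.

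More member genes had at least 1 peak in each MDV-R list than in any C4-2B list. C4-2B lists had 13, 21, 19 and 19 such genes and MDV-R lists 27, 27, 25 and 32, or 18.0 ± 3.46 against 27.8 ± 2.99 (SD, n = 4 each, exact permutation p = 0.0286). Over all annotated genes, 9097 to 12890 had a peak in C4-2B lists and 12707 to 14050 in MDV-R lists, and the ranges overlapped (exact permutation p = 0.0571). With every list cut to its strongest 13191 peaks, the size of the shortest list, the call was lost for the members. They then numbered 13, 17, 17 and 14 in C4-2B and 22, 23, 17 and 23 in MDV-R, or 15.25 ± 2.06 against 21.25 ± 2.87 (exact permutation p = 0.0857), and the lines shared the value 17. Peaks in all 8 lists were found in 13 genes, namely SRSF8, SRSF9, HNRNPA0, HNRNPA2B1, HNRNPA3, HNRNPDL, HNRNPF, HNRNPH2, HNRNPR, HNRNPUL1, HNRNPUL2, PCBP1 and SYNCRIP. For SRSF9 and HNRNPA2B1 the region called in all 8 lists lay outside the main transcript, in an exon of NRAV and of NFE2L3. No C4-2B list called a region inside the main transcript of either gene. With peaks in exons of other genes left out, MDV-R had 10.5 more member genes with a peak on average (exact permutation p = 0.0286). That setting was chosen after seeing the data. Peaks in MDV-R lists alone were found in 11 of the 32 genes, where 15.1% of the 17062 genes with a peak in any list had this pattern. These were SRSF2, SRSF5, SRSF6, SRSF10, SRSF12, HNRNPA1, HNRNPC, HNRNPH3, HNRNPU, PTBP1 and PTBP3, and 5 of them (SRSF2, SRSF10, HNRNPA1, HNRNPH3, PTBP1) did so in MDV-R replicate 4 alone, the longest list. No member carried peaks in C4-2B alone, against 8.31% of all genes with a peak. In the cut lists 6 of 23 members had peaks in MDV-R alone (10.9% of all genes) and 0 in C4-2B alone (12.7% of all genes). SRSF3, SRSF7, TRA2A, TRA2B, HNRNPH1, HNRNPK, PCBP2 and PTBP2 held no peak and no merged region in any list. A list names called peaks only, so a missing gene is one without a call and its methylation was not measured as 0. The authors kept uniquely mapped reads, which leaves out reads shared with processed pseudogenes, of which HNRNPA1 and HNRNPK have many. Whether this filter bears on the missing calls was not tested.

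**Figure D2:**
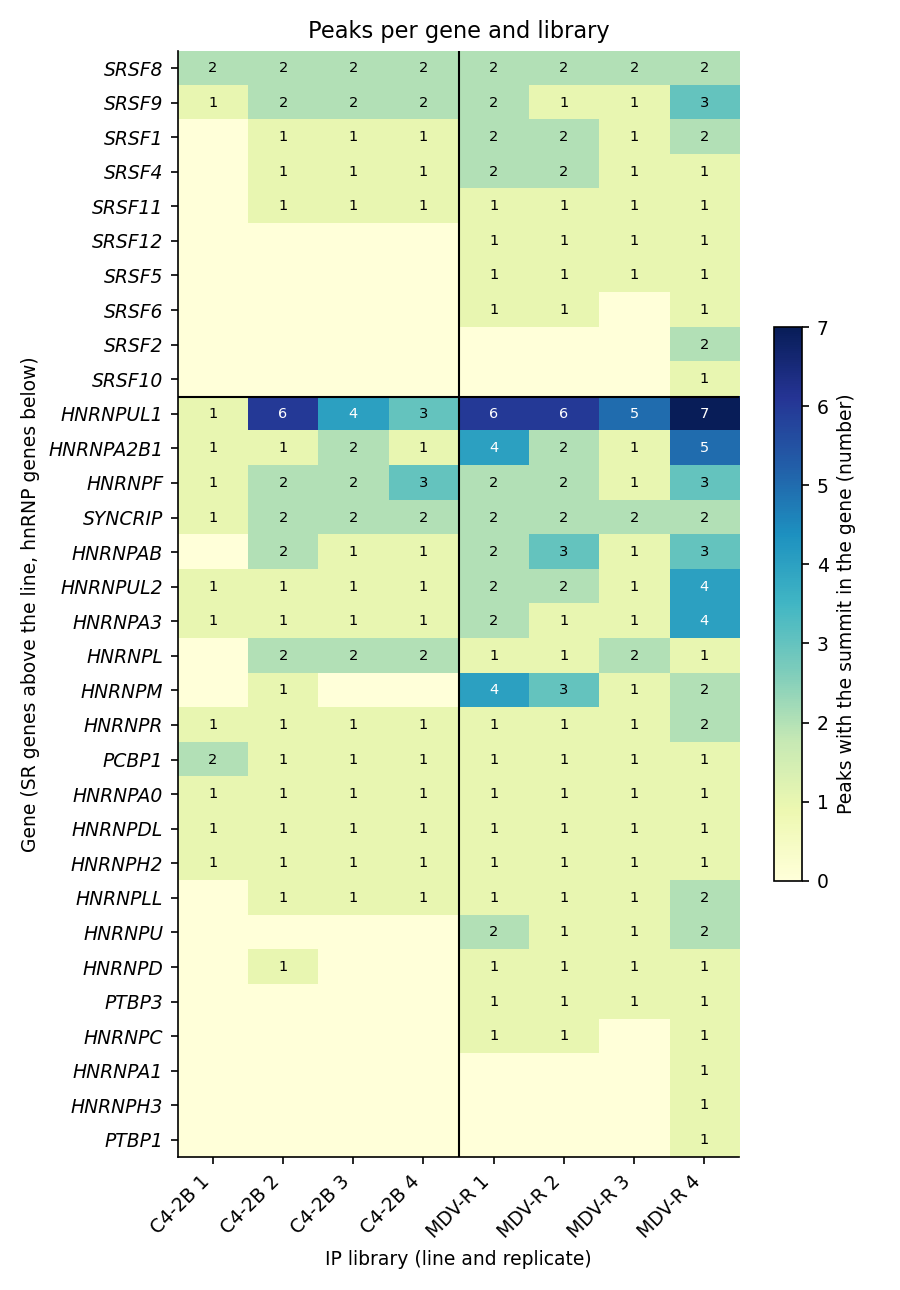
Number of peaks with the summit in each of the 32 SR and hnRNP genes that held any, by IP library, with SR genes above the horizontal line and C4-2B libraries left of the vertical line. The rows of SRSF5, SRSF12, HNRNPU and PTBP3 are empty in all 4 C4-2B libraries and filled in all 4 MDV-R libraries, and HNRNPUL1 reaches 7 peaks in MDV-R replicate 4.

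Of the 63 merged regions, 61 were called in at least 1 list, 16 in SR and 45 in hnRNP genes. A region was called in a list when a peak of that list overlapped it by at least 1 bp. The other 2, in HNRNPA1 and HNRNPH3, overlapped no peak. Among the 61, 46 were called in more MDV-R than C4-2B lists, 15 in equal numbers and 0 in more C4-2B lists. Over all 36076 called regions these shares were 49.7% for more MDV-R and 18.4% for more C4-2B lists. No C4-2B list called 31 of the member regions, where 28.3% of all regions had calls in MDV-R alone. With every list limited to its strongest 13191 peaks, 19 of 34 member regions were called in more MDV-R and 3 in more C4-2B lists, beside 31.9% and 27.0% of all regions. All 8 lists called 14 member regions, where 25.9% of all regions were called in all 8.

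Every MDV-R list and no C4-2B list called 5 of the member regions, a pattern held by 3.68% of all called regions, and 0 member regions had the reverse pattern, held by 1.22%. The 5 lay in SRSF5, SRSF12, HNRNPU, PTBP3 and HNRNPM. Fisher's exact test gives p = 0.0286 for 4 against 0 in a single region, and after Benjamini-Hochberg adjustment over all called regions the lowest p was 0.584, so no region passed. With the lists cut to equal size 2 of 34 called member regions had this pattern, the HNRNPU region and one in HNRNPAB. Without MDV-R replicate 3 there were 11, because 3 of 3 MDV-R lists then sufficed. The 6 regions called in the other 3 MDV-R lists and no C4-2B list were thereby added. The shares over all regions under these settings are not given here.

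SRSF5 and SRSF12 encode SR proteins, and their regions lay in the last exon, upstream of the stop codon. In SRSF5 (chr14:69770991-69771569, exon 8 of 8, summit 201 nt upstream of the stop codon) the fold enrichment, the ratio of IP tags to local background at the summit as the authors' caller gave it, was 5.70, 5.46, 2.52 and 5.12 in MDV-R replicates 1 to 4, from 75, 72, 76 and 59 tags. In SRSF12 (chr6:89098497-89099023, exon 5 of 5, summit 164 nt upstream of the stop) it was 6.60, 9.13, 8.52 and 7.70. That region rested on 8, 11, 13 and 9 tags, the fewest of the 5. SRSF6 had its region in the last exon too, called in MDV-R replicates 1, 2 and 4 at 3.08, 3.50 and 2.85, and a 3′UTR region of SRSF1 was called in the same 3 lists at 4.34, 3.57 and 4.75.

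HNRNPU, which organises nuclear RNA and chromatin besides its part in splicing, carried its region in the coding part of exon 1 of 14 (chr1:244863824-244864625). Fold enrichment was 4.16, 4.54, 2.24 and 5.40 in MDV-R replicates 1 to 4, from 148 to 160 tags, the most of the 5 regions. The summit also lay in an exon of another annotated gene, ENSG00000273175. PTBP3, a relative of the polypyrimidine tract binding repressor PTBP1, carried its region in exon 14 of 14 (chr9:112223676-112224069, summit 56 nt upstream of the stop), with 6.05, 5.70, 4.31 and 8.39 from 26 to 31 tags. The HNRNPM region lay in intron 1 (chr19:8455136-8455466) and in no annotated exon, with 6.63, 6.92, 3.01 and 6.31 from 74 to 87 tags. In SRSF5, HNRNPU, PTBP3 and HNRNPM replicate 3 gave the lowest of the 4 values, and in SRSF12 replicate 1 did.

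Among the 61 called regions, 37 had their strongest summit in an exon of the gene's main transcript, 24 in coding sequence, 7 in the 3′UTR and 6 in the 5′UTR. Of the SR regions in such exons 10 of 13 lay in the exon that holds the stop codon, and of the hnRNP regions 8 of 24. The median summit of these 18 lay 144 nt upstream of the stop codon. SRSF4 showed this position in 7 lists, with a summit 590 nt upstream of the stop in exon 6 of 6 and fold enrichment of 2.79, 2.78 and 2.14 in C4-2B replicates 2 to 4 and 4.02, 4.89, 2.16 and 4.85 in MDV-R. SRSF11, with the same calls, had its summit in exon 11 of 12, so not in the last exon. The hnRNP regions reached further upstream, as in HNRNPUL1, HNRNPUL2, HNRNPDL and HNRNPD, where they lay in exon 1. In the single-exon genes SRSF8, HNRNPA0 and PCBP1 an exonic region can only lie in the exon with the stop codon. Of the SR regions in that exon, those of SRSF2 and SRSF10 and 1 of SRSF4 were called in a single list. The same share over all exonic regions was not computed.

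**Figure D3:**
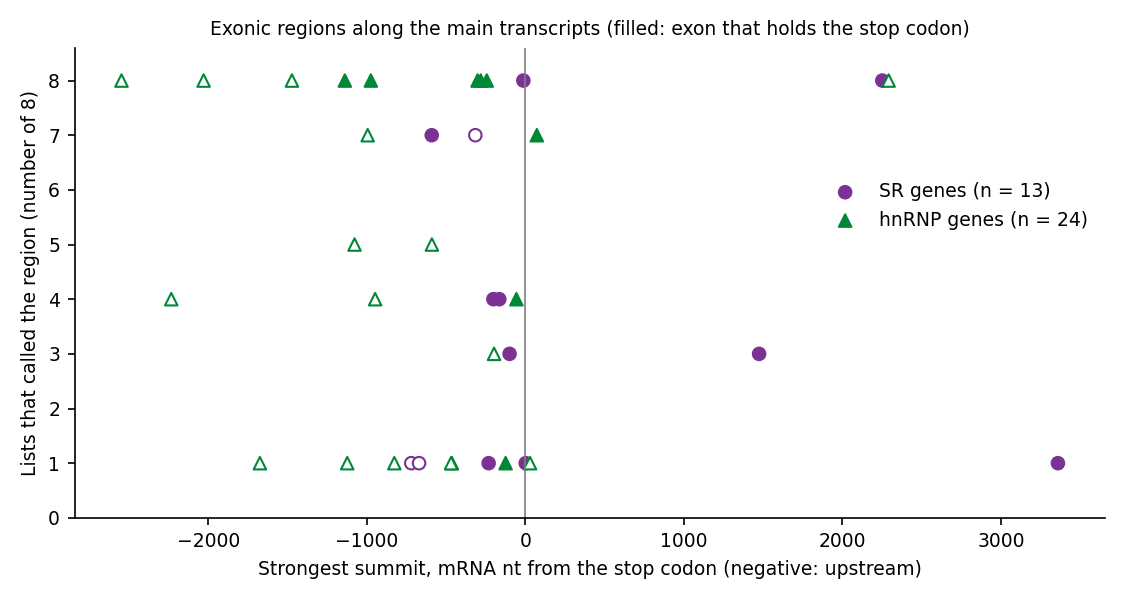
Position of the strongest summit of the 37 exonic regions along the mature main transcript, in nt from the stop codon (x axis, negative upstream), against the number of the 8 lists that called the region (y axis). Circles are SR genes (13 regions) and triangles hnRNP genes (24 regions), and filled symbols lie in the exon that holds the stop codon, as 10 of the circles and 8 of the triangles do.

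Across lists, member peaks fell in coding sequence in 37.0% to 53.3%, and this share was above that of all peaks in genes (32.4% to 42.4%) in 8 of 8 lists. The share in introns, 20% to 28.6%, was below that of all peaks in genes in 8 of 8 lists. All peaks in genes included those in noncoding genes, which hold no coding sequence, while every member is protein coding. Non-coding exons held 9.79% to 10.9% of all peaks in genes. The shares of members and of all peaks are therefore not on equal terms. No class passed the test between lines. The coding share was 42.6% ± 7.33 in C4-2B, against 45.2% ± 2.7 in MDV-R, and the intron share 25.7% ± 3.94 and 24.6% ± 2.75 (SD, n = 4 each, exact permutation tests, adjusted p = 0.914 over the 5 classes). The direction of the coding and the intron difference turned when the lists were cut to equal size.

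GGAC stood within 50 nt of the strongest summit, on the gene's strand, in 24 of the 61 called regions and in 11 of the 14 called in all 8 lists. The same shares over all regions are not given here, so these counts do not set the members apart. The 11 include the SRSF9 region in an exon of NRAV and the SYNCRIP region outside the main transcript. Among exonic member peaks the share with GGAC was 58.3%, 47.8%, 45% and 50% in C4-2B, against 45.9%, 35.5%, 48.0% and 41.3% in MDV-R. Over all exonic peaks it was 45.3% to 48.3%, above the member share in 4 of 8 lists. In windows 300 nt away from exonic member summits it was 20.3% to 30.4%, lower than at the summit in 8 of 8 lists. Over all exonic peaks such windows gave 28.4% to 29.2%. The windows were taken along the genome, so they can fall in introns where exons are short. The means of the lines were 50.3% ± 5.74 and 42.7% ± 5.56 (SD, n = 4 each, exact permutation p = 0.143). The sequences below are those nearest the summit, and only sequences within 50 nt of it are shown. They come from regions called in all 8 lists in exons of the members' main transcripts, then 1 from a region called in MDV-R alone and 2 from alternative exons. Left out were the HNRNPA0 region and the 3′UTR region of SRSF8, with the nearest GGAC at 247 and 112 nt. Of the 5 regions called in every MDV-R and no C4-2B list, 1, in SRSF5, had GGAC within 50 nt. GGAC is in capitals, each run is 5′ to 3′ on the gene's strand, and coordinates are on GRCh38.
SRSF8, coding, chr11:95068048-95068071, plus strand: tgaagaggaaGGACagatgtcctc
HNRNPF, coding, chr10:43387637-43387660, minus strand: ggaaagcatgGGACaccggtacat
HNRNPH2, coding, chrX:101412197-101412220, plus strand: ctttgaagaaGGACagagaaacca
HNRNPR, coding, chr1:23310734-23310757, minus strand: ggcacctttgGGACcaccaagagg
PCBP1, coding, chr2:70088494-70088517, plus strand: atgcacggcgGGACcggattcgcc
HNRNPUL1, coding, chr19:41264553-41264576, plus strand: gccgcggcctGGACactcgaggcc
HNRNPUL2, coding, chr11:62726925-62726948, minus strand: gcccgggcggGGACgaggaggagg
HNRNPDL, 5′UTR, chr4:82429856-82429879, minus strand: ggagtgggctGGACcggacgccag
HNRNPA3, 3′UTR, chr2:177221691-177221714, plus strand: cactaagacaGGACttcagcagcc
SRSF5, coding, MDV-R alone, chr14:69771210-69771233, plus strand: tctcgatcccGGACcagaagttcc
HNRNPLL, alternative exon, chr2:38581548-38581571, minus strand: tctatggaaaGGACtttcccccaa
HNRNPUL1, alternative exon, chr19:41268127-41268150, plus strand: ttgagctcctGGACctgcagatgc
Among these the SRSF8 motif lay at the summit itself (0 nt), and those of HNRNPH2, HNRNPUL2, HNRNPLL and the alternative exon of HNRNPUL1 within 9 nt of it.

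The 14 regions called in all 8 lists lay in 13 genes. The highest mean fold enrichment among them was at SRSF9 (16.8 ± 6.24, SD over 8 lists) and HNRNPA2B1 (14.8 ± 4.73). Neither lay in the gene's own main transcript. The SRSF9 region (chr12:120490206-120492347) lay upstream of it, within the span of a longer transcript, and in an exon of the long noncoding RNA gene NRAV. The HNRNPA2B1 region (chr7:26184378-26186126) lay beyond the 3′ end of its main transcript, in an exon of the neighbouring NFE2L3. The lists carry no strand, so tags of either gene cannot be told apart there. Next came HNRNPUL1 exon 1 (11.5 ± 4.92), the 3′UTR of SRSF8 (11.3 ± 6.29), a SYNCRIP intron outside the main transcript (11.03 ± 4.58), HNRNPH2 exon 2 (8.57 ± 5.38), HNRNPR exon 11 (8.03 ± 3.08) and HNRNPF exon 4 (7.74 ± 4.61). In all, 14 of the 61 called regions and 80 of the 287 peaks lay in an exon of another gene, readthrough and antisense genes included.

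SRSF8 is a single-exon gene that arose as a copy of SRSF2, and it was the 1 member with 2 regions called in all 8 lists. The region at the stop codon had fold enrichment of 2.95, 4.99, 5.95 and 6.53 in C4-2B and 6.71, 9.42, 4.17 and 9.47 in MDV-R. The region in the 3′UTR, 2252 nt past the stop, had 4.39, 9.77, 8.26 and 7.11 in C4-2B and 10.3, 23.7, 9.09 and 17.7 in MDV-R. Both overlapped between lines. The parent gene SRSF2 had 2 regions, each called in MDV-R replicate 4 alone, at 4.82 and 3.95.

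To set levels side by side, IP tags and local background were taken as multiples of the library's average and each list was centred on its median over the 9327 regions called in all 8 lists, because the lists differed as a whole. Before centring the median region was 0.40 higher in log2 fold enrichment in MDV-R, 0.08 higher in IP tags and 0.49 lower in local background, and changes below are relative to these shifts. Local background follows input tags around the summit and so tracks transcript abundance only roughly. Fewer cells making an RNA and less RNA per cell cannot be told apart in bulk libraries.

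At the 14 member regions the IP tags tended lower in MDV-R, with a median log2 change of -0.22 against -0.02 over all regions. In limma 7 fell and 0 rose at an adjusted p under 0.05, where 27% of all 9327 regions fell and 23.3% rose. The regions that fell lay in HNRNPA3 (-1.32 ± 0.07 SE, adjusted p = 3.32e-07), SYNCRIP (-0.92 ± 0.18, 0.00169), HNRNPF (-0.29 ± 0.09, 0.0184), HNRNPUL1 (-0.28 ± 0.09, 0.0311), HNRNPH2 (-0.25 ± 0.09, 0.0446), HNRNPA2B1 (-0.23 ± 0.08, 0.0419) and HNRNPR (-0.20 ± 0.07, 0.034). The regions of HNRNPA2B1, HNRNPA3 and HNRNPH2 also lay in an exon of NFE2L3, NFE2L2 and the readthrough gene RPL36A-HNRNPH2, in that order. The SYNCRIP region lay in the span of ENSG00000271793. Without centring, those of HNRNPA3 and SYNCRIP alone passed, and the other 5 were not called. Leaving out C4-2B replicate 1 also left 2 calls, and leaving out others left 4 to 8. With the replicate number as a block 4 passed.

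HNRNPA3 encodes an A/B type hnRNP related to HNRNPA1, and its region (chr2:177221434-177221919) lay in the 3′UTR, 2292 nt past the stop codon. IP tags stood at 201, 259, 270 and 302 times the library average in C4-2B replicates 1 to 4 and at 99.9, 112, 119.8 and 104 in MDV-R. No MDV-R library reached a C4-2B library, and the centred level was 2.5-fold lower. Local background there was 53.3, 34.2, 33.1 and 62.4 in C4-2B, against 13.3, 8.98, 26.3 and 7.10 in MDV-R, again without overlap (-1.36 ± 0.25 SE, adjusted p = 0.00868 in limma). The fold enrichment did not pass (-0.03 ± 0.24). The summit also lay in an exon of NFE2L2, which encodes an oxidative stress regulator and overlaps HNRNPA3 there, and the lists do not separate the genes.

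SYNCRIP, also called hnRNP Q, is a cytoplasmic and nuclear relative of HNRNPR. Its region called in all lists (chr6:85642828-85643510) lay upstream of the main transcript in an intron of a longer one. The summit also lay in the span of another annotated gene, ENSG00000271793. IP tags were 144, 172, 222 and 205 times average in C4-2B and 73.2, 143, 126 and 83.7 in MDV-R, with 143 in MDV-R replicate 2 against 144 in C4-2B replicate 1 as the closest pair. Local background did not pass there (-0.86 ± 0.33 SE, adjusted p = 0.119 in limma). It was 3.84 to 6.19 in MDV-R replicates 1, 2 and 4 and 15.01 in replicate 3, within the C4-2B range of 11.8 to 26.3.

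**Figure D4:**
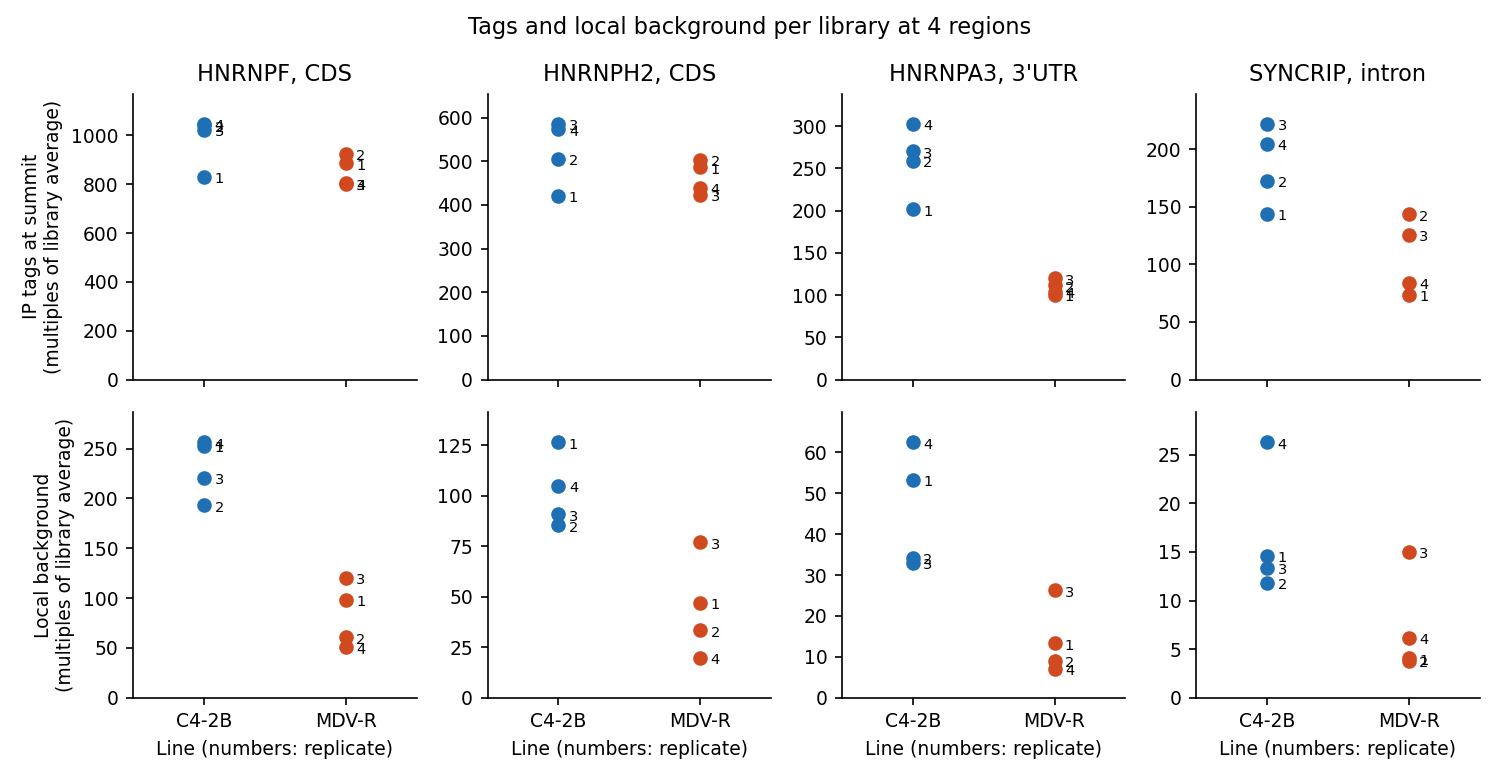
IP tags at the summit (upper row) and local background (lower row), both as multiples of the library's average, in each library at the regions of HNRNPF, HNRNPH2, HNRNPA3 and SYNCRIP called in all 8 lists. Points are libraries numbered by replicate. At HNRNPA3 the MDV-R libraries (99.9 to 119.8) lie below all C4-2B libraries (201 to 302) in IP tags, and at HNRNPF the local background separates the lines (50.7 to 120.1 against 193 to 256).

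HNRNPF and HNRNPH2 encode close relatives that bind G-rich sequences, and their regions covered coding sequence in the exon that holds the stop codon. At HNRNPF (chr10:43386583-43388191) local background was 253, 193, 220.3 and 256 times average in C4-2B, against 97.9, 60.7, 120.1 and 50.7 in MDV-R, and fell relative to all regions (-1.07 ± 0.21 SE, adjusted p = 0.0122 in limma). IP tags were 831, 1040.2, 1023 and 1046 in C4-2B and 886, 924, 803 and 799.8 in MDV-R. The fold enrichment was 3.25, 5.33, 4.59 and 4.04 in C4-2B, against 8.78, 14.5, 6.55 and 14.9 in MDV-R, without overlap. After centring it rose by 0.92 ± 0.23 (log2, SE, adjusted p = 0.0414 in limma), the 1 member region of 14 that passed for fold enrichment, where 0.847% of all regions rose and 1.79% fell. This call was lost with the replicate block, with a minimum of 20 IP tags and when any library other than MDV-R replicate 3 was left out.

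At HNRNPH2 (chrX:101411681-101412810) local background was 127, 85.5, 90.9 and 105 in C4-2B, against 47.1, 33.4, 76.9 and 19.8 in MDV-R (-0.87 ± 0.24 SE, adjusted p = 0.0422 in limma). Every MDV-R library lay below every C4-2B library, with replicate 3 nearest. Its fold enrichment change of 0.71 ± 0.26 did not pass (adjusted p = 0.144). The HNRNPH2 background call was lost when any 1 library was left out (limma, adjusted p = 0.0592 to 0.0905) and with the replicate block (0.0741). In all, 3 member regions fell in local background and 0 rose, where 6.89% and 5.95% of all regions did. The median change of the 14 was -0.54, and 12 of them lay below 0, as did 49.5% of all regions.

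**Figure D5:**
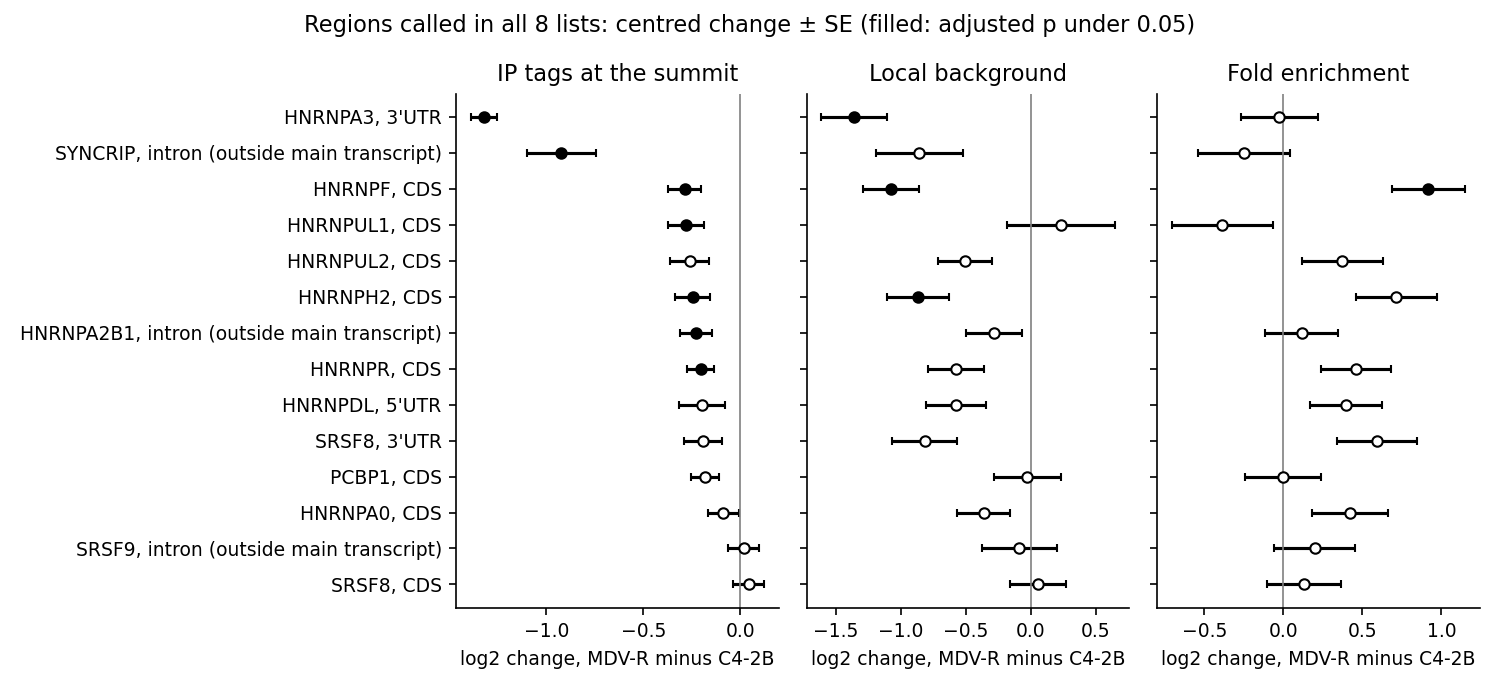
Centred log2 change, MDV-R minus C4-2B, with its standard error at the 14 member regions called in all 8 lists, for IP tags at the summit (left), local background (middle) and fold enrichment (right). Filled points passed an adjusted p of 0.05 in limma over 9327 regions, 7 in IP tags, 3 in local background and 1 in fold enrichment, and the regions are ordered by their change in IP tags.

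The other genes with regions in all lists gave no call in any of the 3 fits. HNRNPA0, a single-exon A/B type hnRNP gene, had fold enrichment of 2.98 to 5.14 in C4-2B and 3.8 to 8.73 in MDV-R. PCBP1, a single-exon poly(C) binding protein gene, had 3.94 to 4.88 and 4.06 to 7.53. Its summits were spread over 861 nt between lists, and the strongest lay in an exon of the antisense gene PCBP1-AS1. HNRNPUL2 had 2.47 to 4.92 and 3.01 to 8.78, and HNRNPDL 3.71 to 6.54 and 7.20 to 12.2. HNRNPDL was alone among these 4 in that its MDV-R values lay above all its C4-2B values, and its centred change was 0.40 ± 0.23 (log2, SE, adjusted p = 0.382).

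HNRNPC, the m6A-dependent reader of U-rich tracts, had 1 region (chr14:21211275-21211771, coding, exon 8 of 9). It was called in MDV-R replicates 1, 2 and 4 and in no C4-2B list, with fold enrichment of 2.49, 2.34 and 2.38 from 92, 80 and 77 tags. Within the main transcript of HNRNPA2B1, an intron 7 region (chr7:26193306-26193951) was called in the same 3 MDV-R lists, at 3.34, 4.59 and 5.26. The regions in exon 1, intron 2 and exon 11 of that transcript were each called in a single MDV-R list.

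Of the 61 called regions 10 had their strongest summit in an exon that the main transcript lacks, and 5 of these were called in at least 4 lists. In SRSF1, the founding SR protein gene, the region chr17:58006790-58007748 lay in a retained intron transcript and in an exon of ENSG00000279069, with fold enrichment of 4.83, 4.17 and 3.49 in C4-2B replicates 2 to 4 and 3.47, 8.35, 1.90 and 3.35 in MDV-R. In HNRNPLL, which controls exon choice in lymphocytes, a region in intron 6 (chr2:38581188-38581830) fell in the 3′UTR of a shorter coding transcript. It had 8.63, 7.96 and 7.63 in C4-2B replicates 2 to 4 and 14.7, 14.9, 11.3 and 18.7 in MDV-R, so that the called values did not overlap. HNRNPUL1 carried one in intron 1 (chr19:41267952-41268313), in the 5′UTR of other transcripts, at 8.47, 6.35 and 6.25 in C4-2B and 11.6, 13.6, 5.85 and 14.0 in MDV-R. HNRNPF had one in intron 1 at 4.64 and 4.14 in C4-2B replicates 3 and 4 and 8.45, 7.35 and 8.09 in MDV-R replicates 1, 2 and 4, with summits up to 705 nt apart. The last lay in SYNCRIP (chr6:85612681-85613131), beyond the 3′ end of the main transcript and in an exon of another annotated gene, ENSG00000271793. Fold enrichment there was 3.67, 4.81 and 3.32 in C4-2B and 9.11, 8.58, 3.87 and 10.7 in MDV-R. None of the 5 regions was called in C4-2B replicate 1. The share of member peaks in alternative exons was 0%, 18.8%, 21.4% and 22.2% in C4-2B, against 14.6%, 16.3%, 12.5% and 12.9% in MDV-R (exact permutation p = 0.857). Without C4-2B replicate 1, whose share rested on 15 peaks, the difference was -6.73 percentage points (MDV-R minus C4-2B, exact permutation p = 0.0286). Its direction turned under other settings, to 2.67 points with lists cut to equal size, 0.409 without C4-2B replicate 3 and 0.674 without C4-2B replicate 4.

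HNRNPUL1, an HNRNPU relative that takes part in DNA damage repair, held the most regions of any member, 7, and 38 peaks. Outside exon 1 and the alternative exon they lay in intron 2, exon 12, exon 13, intron 13 and exon 15, and each was called in as many or more MDV-R than C4-2B lists. In exon 13 (chr19:41303765-41304229) the fold enrichment was 8.05 in C4-2B replicate 2, its single C4-2B call, and 10.0, 9.77, 4.80 and 8.44 in MDV-R. The exon 12 to 15 regions also lay in the span of TGFB1, and the exon 12 summit lay in an exon of TGFB1. The exon 15 region (chr19:41306251-41306821) had its strongest summit 73 nt past the stop. Its fold enrichment was 2.40, 2.57 and 2.32 in C4-2B replicates 2 to 4 and 4.18, 5.43, 4.38 and 7.67 in MDV-R.

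HNRNPAB encodes an A/B type protein. In its intron 5 (chr5:178206589-178208324) the fold enrichment was 4.56, 4.37 and 4.54 in C4-2B replicates 2 to 4 and 10.0, 10.9, 6.78 and 15.1 in MDV-R. Every MDV-R value there lay above every called C4-2B value, before any centring, and C4-2B replicate 1 had no call. A region in a retained intron transcript of HNRNPAB was called in MDV-R replicates 1, 2 and 4 at 8.98, 8.68 and 8.31. The region over its exon 2 had its strongest summit in the gene, but in 4 of the 7 lists that called it the summit lay upstream of the gene, so its values are not compared.

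HNRNPL held 11 peaks, none of which overlapped a merged region. They lay in intron 6 of its main transcript, in all lists but C4-2B replicate 1. Of these 7 had summits between positions 38842537 and 38842616 of chromosome 19, at fold enrichment of 5.91, 5.95 and 3.17 in C4-2B replicates 2 to 4 and 8.52, 10.5, 4.55 and 12.1 in MDV-R, from 57 to 68 tags. The other 4, in a retained intron transcript, stood at 3.71, 4.06 and 3.86 in C4-2B replicates 2 to 4 and at 3.03 in MDV-R replicate 3.

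Other splicing genes were described by the same counts. Of 34 genes 23 held 70 called regions, 47 of them with more MDV-R calls and 3 with more C4-2B calls. Over all called regions these shares were 49.7% and 18.4%. All 19 regions of the SR protein kinases SRPK1, SRPK2, CLK1 and CLK3 were called in as many or more MDV-R than C4-2B lists. Of these, 11 were called in more, beside the 49.7% of all regions. Calls in every MDV-R and no C4-2B list were seen at 6 regions, 2 of them in SRPK2 and 1 each in SNRPA, SRRM2, MBNL1 and ESRP1. Of all called regions 3.68% had this pattern. Among the 18 regions called in all 8 lists, 1 rose in fold enrichment, in SON (0.85 ± 0.22 log2, SE, adjusted p = 0.046 in limma), and 3 fell in local background, in TARDBP (-0.96 ± 0.24, 0.0305), ESRP2 (-1.05 ± 0.22, 0.0148) and KHSRP (-0.87 ± 0.21, 0.0233). Of all 9327 regions 0.847% rose in fold enrichment and 6.89% fell in local background. TARDBP, ESRP2 and KHSRP also fell in IP tags, as did SF1, and 1 region of CLK3 rose. In IP tags 27% of all regions fell and 23.3% rose. SF3A1, SF3B1, U2AF1, PRPF8, SRRM1, KHDRBS1 and CLK4 held no peak in any list.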

How the data were processed

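Peak lists of 8 IP libraries and 1 merged list were used. Per the methods and the submitters' processing notes, STAR 2.7.0 placed the reads on hg38 (GENCODE release 39), SAMtools 1.10 removed duplicates and multiple mappers, and MACS2 3.0.0a6 called IP peaks against input, library by library. The deposited lists give per peak a fold enrichment (a ratio), −log10 p, −log10 q and a score derived from −log10 q. The deposited merged regions (unit other: positions alone) carry no values and their making is not given in the sources used here.

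Tags and local background at each summit were solved from the deposited ratio and −log10 p. The shortest peaks, 239 to 293 nt, gave the extension, which was not the stated 100 nt, and with the stated genome size of 300 Mb the IP libraries would hold 0.317 to 0.414 M tags, fewer than the at least 0.718 to 1.09 M counted at separate summits. Absolute depth is therefore unknown and levels are multiples of each library's average.

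Summits were placed with GENCODE release 44 (main transcript: MANE Select or canonical), with coding sequence taken before 3′UTR, then 5′UTR, other exons and introns. GGAC was searched on the gene's strand within 50 nt. Lines were tested against each other over all 70 arrangements of 8 libraries (exact permutation, two-sided), regions with Fisher's exact test, and levels with limma 3.58.1 (R 4.3.3) on log2 values over regions called in all lists, with Benjamini-Hochberg adjustment over all regions. Python 3.11.15, scipy 1.17.1 and bedtools 2.31.1 were used, and the steps were tested on simulated data.

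Named were members with a region called in 1 line alone, regions past a test, the 8 highest regions, alternative-exon regions in at least 4 lists, HNRNPC, HNRNPA2B1 and members without a region. The members and gene lists were chosen with earlier results of these data known. Alternatives were lists cut to the smallest size, −log10 q of at least 5, overlap rules, no centring, tag minimums, motif and transcript choices, replicate blocks and leaving out each library. Leaving out peaks in exons of other genes, the counts of regions called in more lists of a line under other settings, and those of genes with a peak, were chosen after seeing the data. Read counts per region were not analysed here. A few genes of the marker and splicing lists are not reported here.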

Additional observations from a re-analysis of the deposited data

Results flagged for a closer look

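Among 102 groups of 4 libraries examined for member values, 5 held a library far from the other 3, and chance gives about 1 in 20, or 5.1. C4-2B replicate 1 had 0% of its member peaks in alternative exons against 18.8% to 22.2% in the other C4-2B lists. It also had the lowest IP tags of its line at HNRNPF (831 times the library average against 1023 to 1046) and at the SRSF9 region in NRAV (283 against 427 to 428). MDV-R replicate 3 had the lowest fold enrichment at that SRSF9 region, 10.8 against 22.9 to 24.5, and the highest local background there, 35.7 against 13.6 to 15.2. C4-2B replicate 1 was the shortest list and MDV-R replicate 3 had the lowest input depth of its line, and their part in these values was not tested. In HNRNPL 11 peaks lay outside the merged regions, a signal that comparisons over merged regions do not hold.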

How the results depend on the processing

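Values here are MDV-R minus C4-2B. For member peaks per list the difference was 21.75 (exact permutation p = 0.0286) when overlap replaced the summit, and 15.5 to 25.5 with each library left out in turn. For their share of the list it was 0.0412 to 0.0674 percentage points. Both reached p = 0.0286 (exact permutation) without MDV-R replicate 3, and gave 0.0571 to 0.0857 without any other library. With the replicate number as a block (pairs by number) the exact sign-flip p was 0.125 for both, the smallest 4 pairs allow, and also for member genes with a peak (9.75 more in MDV-R). That number differed by 6 in cut lists (exact permutation p = 0.0857) and by 8.08 to 10.8 without single libraries. Same-numbered libraries did not deviate together over regions (correlations of -0.0749 to 0.0251, against -0.0916 to 0.112 for other pairs). Samples handled together need not deviate together at single regions, so these values cannot show whether the numbers pair samples.

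With lists cut to 13191 peaks the share differences turned, to -1.99 points for coding sequence, -1.04 for 3′UTR, 0.970 for non-coding exons, 2.12 for introns and 2.67 for alternative exons. Leaving out single libraries gave 0.814 to 6.25 for coding sequence (2.66 with all), -2.91 to -0.0574 for introns (-1.03), -3.06 to -0.463 for 5′UTR (-1.47), -0.927 to 1.61 for 3′UTR, -1.91 to 0.474 for non-coding exons and -6.73 to 0.674 for alternative exons, and the 3′UTR difference was -0.114 without C4-2B replicate 1, -0.392 without C4-2B replicate 2 and -0.232 without MDV-R replicate 1. The GGAC difference was -10.8 points with the wider motif DRACH (exact permutation p = 0.0286) and -1.08 within 25 nt (exact permutation p = 0.771), against -7.61 for GGAC within 50 nt. Cut lists left 2 regions called in every MDV-R and no C4-2B list, 19 called in more MDV-R and 3 in more C4-2B lists. Single libraries left out gave 5 to 11 of the first kind, whose shares over all regions are not given here for these settings.

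Member regions higher in fold enrichment numbered 0 with at least 20 IP tags and 0 with the replicate block, and 0 to 2 without single libraries (2 without MDV-R replicate 3). Regions lower in IP tags numbered 2 without centring, 3 when 3 lists of each line sufficed (then 1 was higher), 4 with the block, and 2 to 8 without single libraries (2 without C4-2B replicate 1, 8 without MDV-R replicate 2). Those of HNRNPA3 (-1.34 to -1.30) and SYNCRIP (-1.08 to -0.79) passed with any library left out. Regions lower in local background numbered 6 when 3 lists of each line sufficed and 2 with any library left out. The cause of these changes was not tested. Low tag numbers, as at SRSF12, and unknown absolute depth limit single values.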
